A study of Mus musculus with 2 samples.

Results

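The nuclear-encoded subunits of mitochondrial oxidative phosphorylation were examined, complex by complex, in RNA from mouse bone marrow haematopoietic stem cells. Members were taken by symbol, namely genes whose names start with Ndufa, Ndufb, Ndufc, Ndufs, Ndufv, Uqcr, Cox4, Cox5, Cox6, Cox7, Cox8 or Atp5, together with Sdha, Sdhb, Sdhc, Sdhd and Cyc1, without the Ndufaf assembly factors and without pseudogene symbols. This gave 86 of the 23961 genes listed, and 82 of the 86 were measured, meaning that either library reached 1 FPKM, as were 11121 genes in all. FPKM counts fragments per transcript length and per library total, so levels of different genes can be set side by side only roughly. The lengths used were not stated, and values of short genes depend on them most. The rule takes in 75 subunits of complexes I to V, 8 cytochrome c oxidase isoforms known from other tissues or conditions and 3 other factors (Cox7a2l, Atp5s and Atp5sl).

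Both libraries came from untreated C57BL/6 mice kept in a 12:12 light/dark cycle, and the cells were enriched by sorting before RNA was extracted and polyadenylated RNA was sequenced. One library is labelled Per2def, from Per2-deficient mice, and 1 is labelled Per2wt, from wild-type mice. The Per2 allele, the sort markers, the number, sex and age of the animals and the time of collection were not given in the sources used. With 1 library per genotype no test, error or p-value is possible, and what is compared is a pair of libraries rather than genotypes in general.

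The gene that defines the genotypes was read first. Per2, a repressor of the circadian clock, stood at 6.16 FPKM in the library labelled Per2def and at 1.96 FPKM in the library labelled Per2wt. Its RNA was thus 3.13-fold higher in the library labelled Per2-deficient, which goes against a loss of the RNA. Which allele was used and which part of the gene the reads cover were not stated, so this row does not check the labels. Below, Per2def and Per2wt stand for the libraries so labelled.

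Of the 11 stem and progenitor markers listed, 10 were measured, and all 11 summed to 264 FPKM in Per2def and 266 FPKM in Per2wt. Of those 10, 4 were higher in Per2def and 6 lower. Their differences in log2(FPKM + 1), Per2def minus Per2wt, ran from -0.34 (Hlf) to 0.47 (Cd48). By level, the highest of these markers were Cd34 (83.9 FPKM in Per2def and 90.5 FPKM in Per2wt), Flt3 (51.4 and 48.8 FPKM) and Kit (43.6 and 42.7 FPKM). Procr (3.02 and 2.61 FPKM) and Mecom (4.03 and 4.30 FPKM) were low. Slamf1, a stem cell surface marker, was under 1 FPKM in both libraries, with 0.522 FPKM in Per2def and 0.245 FPKM in Per2wt. Progenitors may be present among the sorted cells, and their share was not tested. All 11 of 11 neutrophil and granule markers were higher in Per2def, summing to 1012 FPKM there and 527 FPKM in Per2wt. Of 13 measured erythroid markers 7 were higher in Per2def (median difference 0.23 in log2(FPKM + 1), Per2def minus Per2wt), with Rhag at 0.75 and Car1 at 0.72. The 5 globin rows were lower, from -0.63 (Hbb-b1) to -4.91 (Hbb-bs). Hbb-bs stood at 0.00297 FPKM in Per2def and 29.2 FPKM in Per2wt. The part of reads shared among globin rows in these differences was not tested, so the rows may not be separate readings. All 14 listed erythroid markers summed to 769 FPKM in Per2def and 814 FPKM in Per2wt. None of the 11 neutrophil markers and none of the 14 erythroid markers was at 0 in both libraries. In each comparison below, the part that a difference in cell make-up may have in the result was not tested. In bulk RNA, fewer cells of a type and less RNA per cell cannot be told apart. A row named for a small RNA, Mir6236, held 71.5% of all FPKM in Per2def and 71.3% in Per2wt. No read totals are given, but low genes put the depth of the Per2def library at 1.24 times that of Per2wt.

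Oxidative phosphorylation takes electrons from NADH at complex I and from succinate at complex II, passes them through coenzyme Q, complex III and cytochrome c to oxygen at complex IV, and uses the proton gradient this builds to make ATP at complex V. All complexes but complex II also contain subunits encoded by mitochondrial DNA, which were not analysed here. Quiescent blood stem cells are known to lean on glycolysis, and respiration is known to increase as they differentiate.

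RNA of the subunits was close in both libraries, and most genes were slightly lower in Per2def. Summed over all 86 genes, the level was 5415 FPKM in Per2def and 5591 FPKM in Per2wt, a ratio of 0.969. Of the 82 measured genes, 30 (36.6%) were higher in Per2def, against 62% of all measured genes. The other 52 (63.4%) were lower, against 38% of all measured genes. Counts by complex and by kind of subunit below are to be read beside these shares of all measured genes. Differences are given as log2(FPKM + 1) in Per2def minus the same in Per2wt, which shrinks the folds of weakly expressed genes. On this scale the median of the 82 genes was -0.04, and the median of all measured genes was 0.05. When the libraries were scaled so that the median gene did not differ (median of ratios), 25.6% of the subunit genes were higher in Per2def, against 50.05% of all measured genes.

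Large differences were few. At 1.5-fold or more in FPKM + 1, 2 of the 82 genes were higher in Per2def (2.44%, Ndufs5 and Cox7a1), against 2.61% of all measured genes. No subunit gene was lower by 1.5-fold on that scale, against 1.7% of all measured genes. As plain FPKM ratios, Per2def over Per2wt, the isoform Cox8b stood at 0.403 and Atp5s at 1.64, past 1.5-fold. Cox7a1 and Cox8b reached 1 FPKM in their higher library alone, so their place among the measured genes rests on that library. By complex, the median difference was -0.06 for complex I, 0.07 for complex II, -0.01 for complex III, -0.08 for complex IV and -0.01 for complex V. With median of ratios scaling the medians were -0.12, 0.01, -0.07, -0.14 and -0.07 in the same order. The plot of differences by complex shows these groups overlapping widely, with the isoforms of other tissues spread most.

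**Figure D1:**
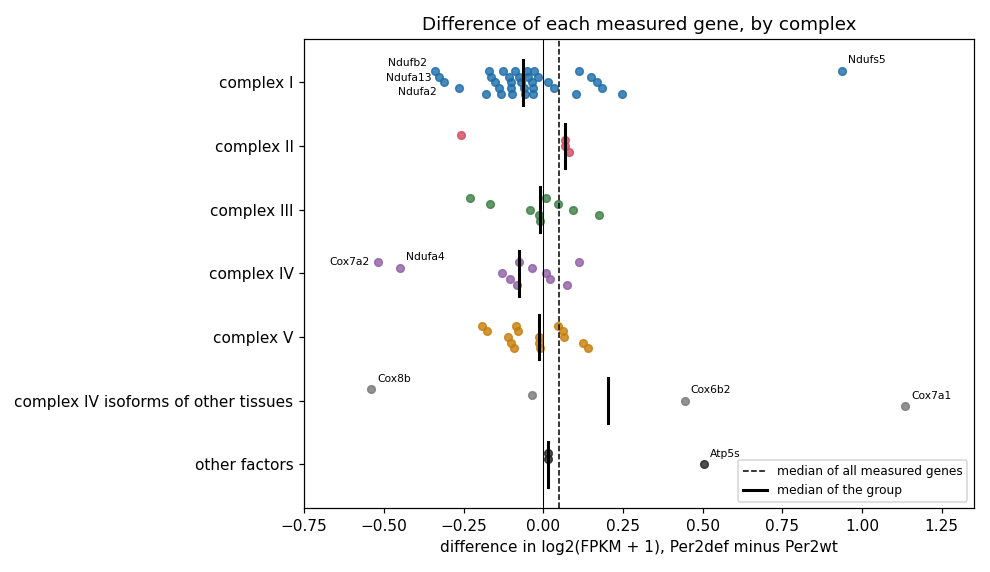
Difference in log2(FPKM + 1), Per2def minus Per2wt, for each of the 82 measured genes (points), by complex; thick bars mark the median of the group and the dashed line the median of all measured genes. Most points of complexes I, III, IV and V lie left of the dashed line, Ndufs5 stands alone at 0.94 in complex I, and Cox7a2 (-0.52) and Ndufa4 (-0.45) lie lowest in complex IV.

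The order of levels between complexes was shared by the libraries. The median gene of complex IV stood at 139 FPKM in Per2def and 132 FPKM in Per2wt, and that of complex V at 119 FPKM in Per2def and 118 FPKM in Per2wt. Complex III followed, with a median of 64.1 FPKM in Per2def and 72.1 FPKM in Per2wt. The genes of complexes I and II were the lowest, at medians of 38.6 and 36.5 FPKM in Per2def and 39.9 and 35.9 FPKM in Per2wt. The part of transcript length in this order was not tested. The plot of levels shows the genes in both libraries.

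**Figure D2:**
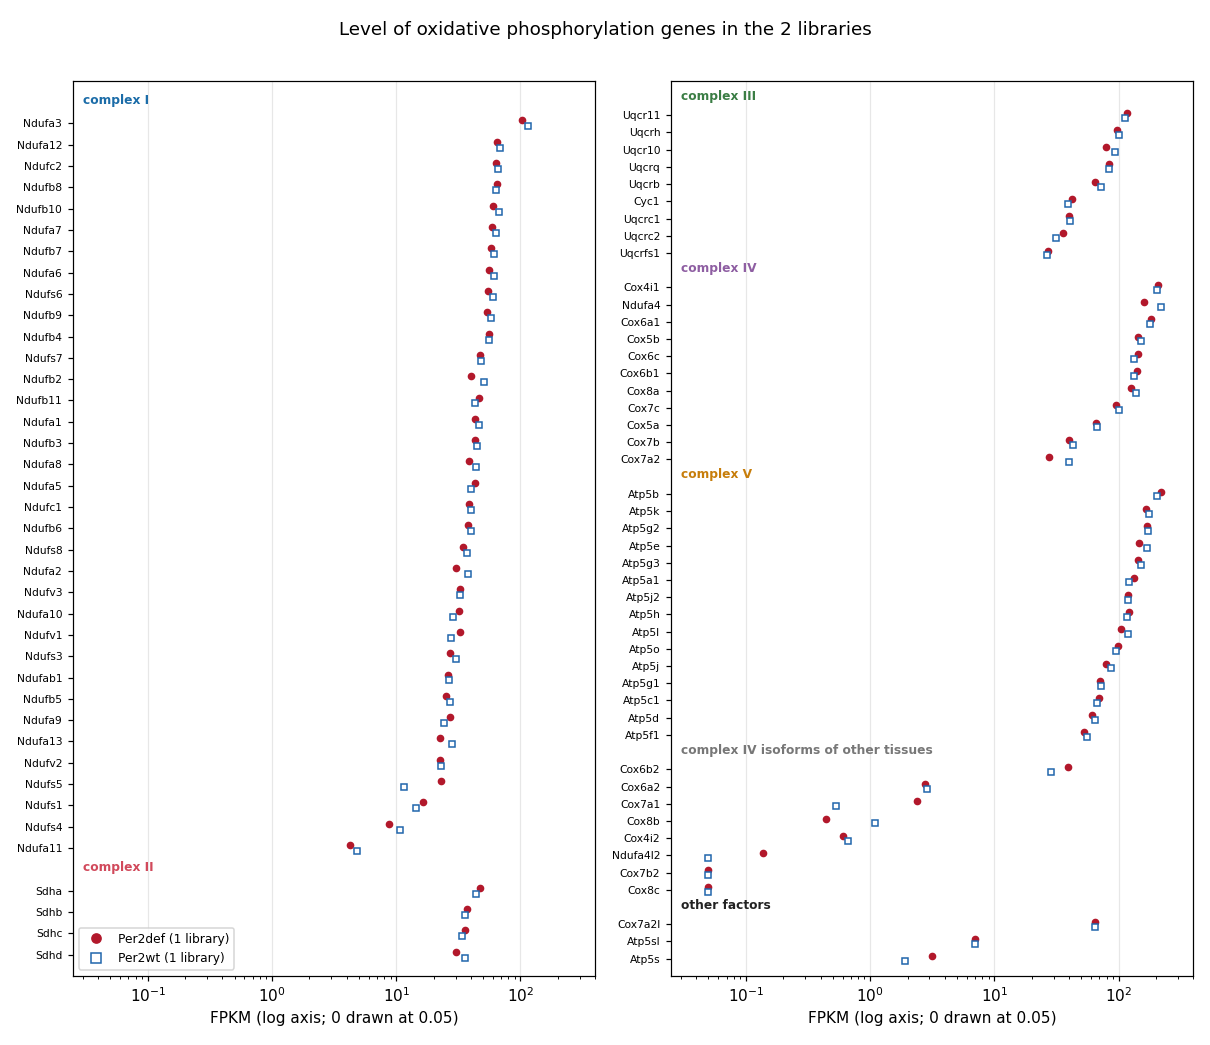
Level of 85 genes in FPKM (log axis, with 0 drawn at 0.05) in Per2def (filled circles) and Per2wt (open squares), ordered by level within each complex. The pairs of symbols nearly touch for most genes, from 220.1 FPKM in Per2def and 201.6 FPKM in Per2wt for Atp5b downwards. Ndufs5, Cox7a2, Ndufa4, Cox6b2, Cox7a1, Cox8b, Atp5s and Ndufa4l2 are visibly apart.

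Complex I, which oxidises NADH and pumps protons, has 36 members, all measured. Their sum was 1475 FPKM in Per2def and 1539.8 FPKM in Per2wt (ratio 0.958), and 9 were higher and 27 lower in Per2def (7 higher with median of ratios scaling). The 7 core subunits, which carry the flavin and the iron-sulphur clusters, summed to 217 FPKM in Per2def and 218 FPKM in Per2wt, with 2 higher and 5 lower. Those 2 belong to the module that takes electrons from NADH. Ndufv1, which binds NADH and the flavin, stood at 32.8 FPKM in Per2def and 27.4 FPKM in Per2wt, a difference of 0.25. Ndufs1, the largest core subunit, stood at 16.4 FPKM in Per2def and 14.3 FPKM in Per2wt, a difference of 0.18. Its gene overlaps Eef1b2 on the opposite strand, a translation factor gene at 161.6 FPKM in Per2def and 157.8 FPKM in Per2wt. The other core subunit of that module, Ndufv2, was at 22.5 FPKM in Per2def and 23.0 FPKM in Per2wt.

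Core subunits of the module that hands electrons to coenzyme Q were lower in Per2def. Ndufs3 stood at 27.0 FPKM in Per2def and 30.4 FPKM in Per2wt (difference -0.17). Ndufs8 had a difference of -0.09 and Ndufs7 a difference of -0.03.

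The accessory subunits, which surround the core and hold the complex together, were mostly lower in Per2def. Of 19 in the membrane arm, 15 were lower (median difference -0.07), and of 9 in the matrix arm, 6 were lower (median -0.10). The most abundant was Ndufa3, in the membrane arm, at 102 FPKM in Per2def and 115 FPKM in Per2wt. Ndufa12, in the matrix arm, followed with 65.0 FPKM in Per2def and 68.5 FPKM in Per2wt. Ndufc2, in the membrane arm, had 64.1 FPKM in Per2def and 65.6 FPKM in Per2wt. These abundant genes differed by -0.17, -0.08 and -0.03.

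The lowest differences of complex I were those of Ndufb2, Ndufa13 and Ndufa2. Ndufb2 (chr6:39592574-39603382, GRCm38), a membrane arm subunit, stood at 40.1 FPKM in Per2def and 51.0 FPKM in Per2wt, a difference of -0.34. Ndufa13 (chr8:69894180-69902558), a membrane arm subunit also known as a cell death regulator, stood at 22.3 FPKM in Per2def and 28.3 FPKM in Per2wt, a difference of -0.33. Ndufa2, a matrix arm subunit near the NADH site, stood at 30.4 FPKM in Per2def and 38.0 FPKM in Per2wt, a difference of -0.31. All of these ratios were milder than 1.5-fold. Among accessory genes that were higher, Ndufa10 stood at 32.2 FPKM in Per2def and 28.6 FPKM in Per2wt (difference 0.17), and it lies 0.980 Mb from Per2 on chromosome 1. Ndufa9, at the coenzyme Q end of the matrix arm, stood at 27.2 FPKM in Per2def and 24.4 FPKM in Per2wt (difference 0.15).

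A further 20 complex I genes lay between differences of -0.26 (Ndufs4) and 0.11 (Ndufa5). They were Ndufa1, Ndufa5, Ndufa6, Ndufa7, Ndufa8, Ndufa11, Ndufab1, Ndufb3, Ndufb4, Ndufb5, Ndufb6, Ndufb7, Ndufb8, Ndufb9, Ndufb10, Ndufb11, Ndufc1, Ndufs4, Ndufs6 and Ndufv3. Ndufab1, which doubles as the acyl carrier protein of mitochondria, stood at 26.2 FPKM in Per2def and 26.7 FPKM in Per2wt. Ndufa11, a membrane arm subunit, was the lowest gene of the complex, at 4.27 FPKM in Per2def and 4.80 FPKM in Per2wt.

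Ndufs5 (chr4:123712710-123718202, minus strand, GRCm38), an accessory subunit on the intermembrane side of the membrane arm, was the exception in size. It stood at 22.8 FPKM in Per2def and 11.4 FPKM in Per2wt, a ratio of 1.99 and a difference of 0.94. A processed pseudogene, BC002163 (chr16:42955631-42955949, GRCm38), carries a near copy of its coding sequence and has its own row in the files. Of 318 coding bases, 316 are the same in both. The stretch with both differing bases (positions 51 to 111, counted from 1 at the first coding base) is printed because within the coding sequence a read that covers neither base is the same for the gene and its copy. Capitals mark the substitutions T81C and A105G, with the base of Ndufs5 first.
Ndufs5: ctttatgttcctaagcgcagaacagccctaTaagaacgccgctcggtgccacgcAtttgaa
BC002163: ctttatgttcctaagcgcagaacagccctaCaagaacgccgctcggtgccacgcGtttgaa
BC002163 stood at 12.6 FPKM in Per2def and 32.3 FPKM in Per2wt, the opposite order to Ndufs5, with a difference of -1.29. The sum of the gene and its copy was 35.4 FPKM in Per2def and 43.8 FPKM in Per2wt, a ratio of 0.809. With each row weighted by its annotated length (680 bases for Ndufs5 and 319 bases for BC002163), the sum gave a ratio of 1.08. The lengths used by the authors were not stated. The bars for the pair show this opposite order, and the part of shared reads in it was not tested.

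**Figure D3:**
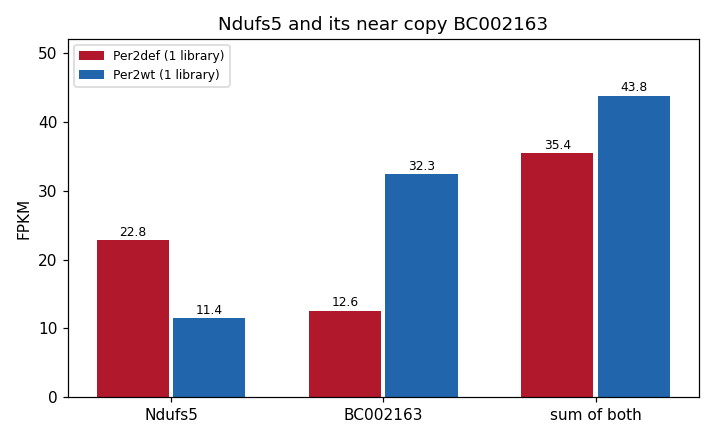
Level in FPKM (bars from 0) of Ndufs5, of its near copy BC002163 and of their sum, in Per2def (left bar of each pair) and Per2wt (right bar). Ndufs5 is higher in Per2def (22.8 against 11.4 FPKM), BC002163 is lower (12.6 against 32.3 FPKM), and the sums lie closer (35.4 and 43.8 FPKM).

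Near copies were sought for every member as annotated genes elsewhere that match at least 100 coding bases at 95% identity or more. A total of 24 members had 43 such copies, 40 of them processed pseudogenes, and 4 copies had a row of their own in the files. Besides BC002163 these were Gm10012 and Gm12338, copies of Cox7c, and 4930481A15Rik, which holds a copy of part of Uqcr10. The coding bases of Gm12338 are the same as those of Cox7c, and its row stood at 37.1 FPKM in Per2def and 38.5 FPKM in Per2wt. Cox7c with both copies summed to 160.3 FPKM in Per2def and 163 FPKM in Per2wt. The 24 members with a copy had a median difference of -0.04 with 8 higher, and the 58 measured members without a copy had a median of -0.04 with 22 higher.

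Complex II, succinate dehydrogenase, links the citric acid cycle to the respiratory chain and is encoded wholly in the nucleus. Its 4 genes summed to 149.9 FPKM in Per2def and 149.8 FPKM in Per2wt. Sdha, Sdhb and Sdhc were slightly higher in Per2def and Sdhd was lower, so the anchors Sdhc and Sdhd differed in sign. The 250 bases before the start of Sdha and of Sdhd are printed because these genes of one complex differ in sign and both carry motifs of factors known to act on respiratory genes. Capitals mark the palindrome of NRF1 (GCGCA and GCGC with any 1 base between them) and the ETS core (CCGGAAG, which reads CTTCCGG on the other strand), and the sequences are from RefSeq (GRCm38.p6, minus strand), at chr13:74350241-74350490 for Sdha and chr9:50603850-50604099 for Sdhd.
Sdha: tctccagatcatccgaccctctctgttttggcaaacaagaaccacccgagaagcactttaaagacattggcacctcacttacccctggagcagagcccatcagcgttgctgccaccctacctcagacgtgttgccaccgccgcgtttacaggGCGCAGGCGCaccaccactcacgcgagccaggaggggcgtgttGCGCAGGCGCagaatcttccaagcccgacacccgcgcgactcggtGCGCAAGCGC
Sdhd: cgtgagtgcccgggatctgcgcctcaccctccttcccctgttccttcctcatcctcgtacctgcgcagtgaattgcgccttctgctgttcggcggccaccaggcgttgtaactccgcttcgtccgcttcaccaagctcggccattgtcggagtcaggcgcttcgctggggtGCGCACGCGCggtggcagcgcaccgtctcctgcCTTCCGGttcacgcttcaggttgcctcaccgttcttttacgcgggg
Sdha, the flavoprotein that oxidises succinate, has 3 NRF1 motifs, ending 88, 45 and 0 bases before its start. It stood at 46.9 FPKM in Per2def and 44.2 FPKM in Per2wt, a difference of 0.08. Sdhd, a membrane anchor, has 1 NRF1 motif at 69 bases and 1 ETS motif at 39 bases before its start. It stood at 30.03 FPKM in Per2def and 36.1 FPKM in Per2wt, a difference of -0.26. The iron-sulphur subunit Sdhb stood at 37.4 FPKM in Per2def and 35.6 FPKM in Per2wt, and the other anchor, Sdhc, at 35.6 FPKM in Per2def and 33.9 FPKM in Per2wt. Both of these differences were 0.07. A motif match is a description of the letters and shows no binding.

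Complex III, which passes electrons from coenzyme Q to cytochrome c, has 9 genes here, summing to 586 FPKM in Per2def and 601 FPKM in Per2wt. Of the 4 catalytic and core genes 3 were higher in Per2def (2 with median of ratios or upper quartile scaling). This is 75%, against 62% of all measured genes. Of the 5 small subunits 4 were lower (all 5 with median of ratios scaling), against 38% of all measured genes. Uqcrc2, a core protein facing the matrix, stood at 35.6 FPKM in Per2def and 31.5 FPKM in Per2wt (difference 0.17). Cyc1, the haem-bearing cytochrome of the complex, stood at 42.0 FPKM in Per2def and 39.4 FPKM in Per2wt (difference 0.09). The Rieske iron-sulphur protein Uqcrfs1 and the core protein Uqcrc1 differed by 0.01 and -0.01.

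The small subunits were the most abundant of complex III. Uqcr11 stood at 116.8 FPKM in Per2def and 113 FPKM in Per2wt, the only small subunit that was higher (difference 0.05, below 0 with median of ratios scaling). The hinge protein Uqcrh stood at 97.4 FPKM in Per2def and 100.2 FPKM in Per2wt (difference -0.04). Uqcr10 showed the lowest difference of the complex (-0.23), with 79.7 FPKM in Per2def and 93.7 FPKM in Per2wt. Uqcrb, which lies by the coenzyme Q site, followed with 64.1 FPKM in Per2def and 72.1 FPKM in Per2wt (difference -0.17), and Uqcrq differed by -0.01. Uqcrb has 3 near copies, none with a row in the files, and Uqcr10 has 1.

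Complex IV, cytochrome c oxidase, reduces oxygen to water. Its 11 genes of the common form summed to 1328 FPKM in Per2def and 1408 FPKM in Per2wt (ratio 0.944), the lowest ratio of the 5 complexes. Ndufa4 is counted here, since its product is a subunit of complex IV in spite of its complex I symbol. With Ndufa4 left in complex I, the medians were -0.07 for complex I and -0.06 for complex IV. Complex I, rather than complex IV, would then have the lowest summed ratio.

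Ndufa4 and Cox7a2 accounted for most of the gap in complex IV. Ndufa4 (chr6:11900292-11907497, GRCm38) stood at 160.7 FPKM in Per2def and 219.7 FPKM in Per2wt, a ratio of 0.731 and a difference of -0.45. Cox7a2 (chr9:79755361-79759878, GRCm38), the common form of subunit VIIa, stood at 27.4 FPKM in Per2def and 39.7 FPKM in Per2wt, a ratio of 0.691 and a difference of -0.52. Neither gene has a near copy by the rule above, and neither overlaps another listed gene. The other 9 genes lay between -0.13 and 0.11.

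Cox4i1, a subunit known to bind ATP, was the most abundant of those 9, at 205.5 FPKM in Per2def and 204.1 FPKM in Per2wt. Cox6a1 stood at 182.4 FPKM in Per2def and 179.9 FPKM in Per2wt. Cox6c had the highest difference of the complex (0.11), with 143 FPKM in Per2def and 132 FPKM in Per2wt. Cox6b1, on the intermembrane side, was next (0.07), with 139 FPKM in Per2def and 132 FPKM in Per2wt. Cox8a stood at 126.6 FPKM in Per2def and 139 FPKM in Per2wt (difference -0.13), and Cox7b, Cox7c, Cox5b and Cox5a had differences between -0.10 and -0.04.

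A total of 8 isoform genes known from other tissues or from low oxygen were read beside the common forms. Cox7b2 and Cox8c, both known from testis, were listed at 0 in both libraries. Cox4i2, the lung and low-oxygen form, stood at 0.603 FPKM in Per2def and 0.666 FPKM in Per2wt, under the floor of 1 FPKM. Ndufa4l2, known to be induced by low oxygen, stood at 0.138 FPKM in Per2def and was listed at 0 in Per2wt. The forms of low oxygen were thus at or near the bottom of the scale in both libraries.

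Cox6b2, known as the testis form of Cox6b1, was the exception in level. It stood at 39.3 FPKM in Per2def and 28.7 FPKM in Per2wt, a ratio of 1.37 and a difference of 0.44. It made up 22.0% of the Cox6b pair in Per2def and 17.8% in Per2wt. The heart and muscle forms were low throughout. Cox7a1 (chr7:30184144-30186078, GRCm38) stood at 2.37 FPKM in Per2def and 0.536 FPKM in Per2wt, a difference of 1.14. Cox8b stood at 0.440 FPKM in Per2def and 1.09 FPKM in Per2wt, a difference of -0.54 and so the opposite order to Cox7a1. Cox6a2 stood at 2.77 FPKM in Per2def and 2.87 FPKM in Per2wt.

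Cox7a1 made up 7.97% of the Cox7a pair in Per2def and 1.33% in Per2wt, while the pair summed to 29.8 FPKM in Per2def and 40.2 FPKM in Per2wt. The higher Cox7a1 was small beside the lower Cox7a2. Of 6 muscle markers none was measured and 5 were at 0 in both libraries, summing to 0.0887 FPKM in Per2def and 0.0918 FPKM in Per2wt.

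Complex V, the ATP synthase, is driven by the proton gradient. Its 15 genes summed to 1755 FPKM in Per2def and 1785 FPKM in Per2wt (ratio 0.983), with 5 higher and 10 lower in Per2def. In the catalytic F1 head 3 of 5 genes were higher (2 with median of ratios scaling, where Atp5c1 was lower). This share, 60%, lies near the 62% of all measured genes. Atp5b, the catalytic beta subunit, was the most abundant gene of the whole set in Per2def, at 220.1 FPKM there and 201.6 FPKM in Per2wt (difference 0.13). Atp5a1, the alpha subunit, stood at 133.6 FPKM in Per2def and 121.2 FPKM in Per2wt (difference 0.14). The rotating gamma subunit Atp5c1 stood at 69.5 FPKM in Per2def and 67.3 FPKM in Per2wt (difference 0.05). The small subunits of the same rotor were lower. Atp5e, the epsilon subunit, stood at 147 FPKM in Per2def and 168 FPKM in Per2wt (difference -0.19), and Atp5d, the delta subunit, had a difference of -0.08.

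The proton-carrying c ring is encoded by Atp5g1, Atp5g2 and Atp5g3, whose products share the same mature protein. Together they summed to 384 FPKM in Per2def and 396 FPKM in Per2wt. Atp5g2 stood at 170.5 FPKM in Per2def and 172 FPKM in Per2wt, and it was the most abundant of them. Atp5g3 stood at 142 FPKM in Per2def and 152 FPKM in Per2wt, and Atp5g1 at 71.2 FPKM in Per2def and 71.8 FPKM in Per2wt. The shares of Atp5g1, Atp5g2 and Atp5g3 were 18.6%, 44.4% and 37.0% in Per2def and 18.1%, 43.4% and 38.4% in Per2wt, so the make-up of the ring's messages was nearly the same.

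The stalk and membrane subunits were lower in 5 of 7 cases, with a median difference of -0.09. Atp5k, a small membrane subunit, stood at 165.9 FPKM in Per2def and 177 FPKM in Per2wt. Atp5l, which helps pair the synthases, stood at 104 FPKM in Per2def and 118 FPKM in Per2wt (difference -0.18), and it has 9 near copies, none with a row. Atp5j, the coupling factor of the stalk, had a difference of -0.11. Atp5h, a stalk subunit, was the highest (0.07), at 121 FPKM in Per2def and 116 FPKM in Per2wt. Atp5o, which joins the stalk to the head, Atp5j2 and Atp5f1 lay between -0.09 and 0.06.

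Of the 3 other factors, Cox7a2l, which joins complexes into supercomplexes, stood at 64.9 FPKM in Per2def and 64.3 FPKM in Per2wt. Atp5sl, now called Dmac2 and known as a complex I assembly factor, stood at 7.03 FPKM in Per2def and 6.94 FPKM in Per2wt. Atp5s, a coupling factor, stood at 3.12 FPKM in Per2def and 1.90 FPKM in Per2wt, a difference of 0.50.

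Across complexes, the genes of long proteins tended to be higher in Per2def and those of short proteins lower. Among 15 members with 800 coding bases or more, 13 (86.7%) were higher in Per2def (10 with median of ratios scaling), with a median difference of 0.09. Uqcrc1, with a difference of -0.01, was among the exceptions. Among 29 members with at least 400 and under 800 coding bases 8 (27.6%) were higher (5 with that scaling, median -0.07), and among 38 members under 400 coding bases 9 (23.7%) were higher (6 with that scaling, median -0.08). The 13 higher genes of the long class were Sdha, Sdhb, Atp5a1, Atp5b, Atp5c1, Cyc1, Uqcrc2, Uqcrfs1, Ndufv1, Ndufv3, Ndufs1, Ndufa9 and Ndufa10, which are catalytic, core and accessory subunits. The core subunits Ndufs3, Ndufv2, Ndufs7 and Ndufs8, which have under 800 coding bases, were lower. The accessory subunits Ndufa9, Ndufa10 and Ndufv3 of the long class were higher (Ndufv3 was lower with median of ratios or upper quartile scaling). The parts of coding length and of subunit role in these differences were not tested.

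Other protein-coding genes showed the same order of classes. Of 7503 other measured genes with 800 coding bases or more 65.9% were higher in Per2def, of 1792 from 400 to under 800 bases 53.8% were, and of 525 under 400 bases 42.9% were. Restricted to an average of 20 to 250 FPKM, the range of most members, the shares were 70.2% of 739 genes, 50.1% of 367 and 42.0% of 169. Members are short, with a median coding length of 426 bases against 1341 bases for the other genes. Spearman's rho between difference and coding length was 0.39 over the 82 members, and it was 0.14 over the 9820 other genes. Both are descriptions across genes of the same pair of libraries, and the classes were chosen after the values had been seen. The part of transcript length in the differences by complex was not tested.

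**Figure D4:**
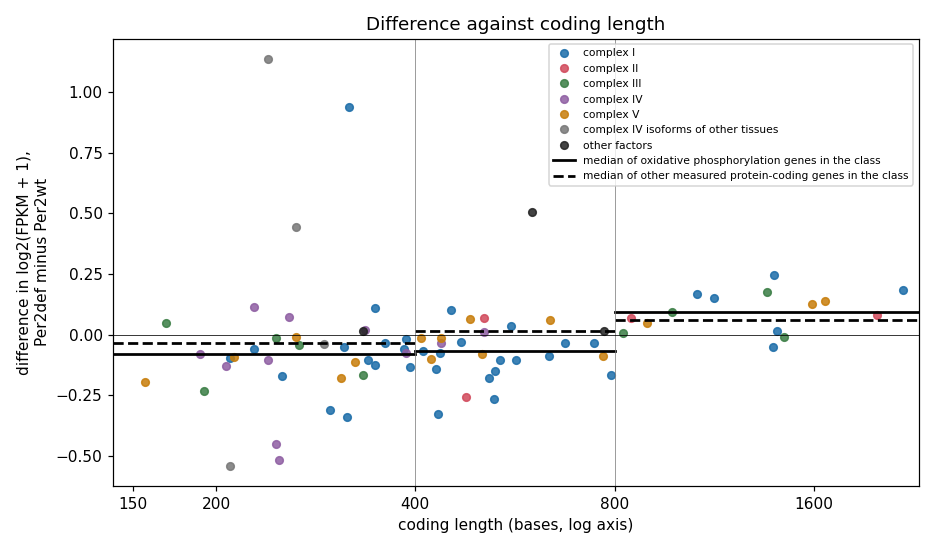
Difference in log2(FPKM + 1), Per2def minus Per2wt, against coding length in bases (log axis) for the 82 measured genes, coloured by complex; horizontal lines give the median of each length class for these genes (solid) and for other measured protein-coding genes (dashed). The solid line lies at -0.08 under 400 bases, at -0.07 from 400 to under 800 bases and at 0.09 above, and the dashed line steps the same way at -0.03, 0.02 and 0.06.

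To show how wide differences run at these levels, other genes of like abundance were read. Among 1187 other genes averaging 20 to 100 FPKM, the middle 95% of differences ran from -0.32 to 0.31. Of 55 members in that range, Cox7a2, Ndufa13 and Ndufb2 lay below it and Cox6b2 above it. Among 88 other genes averaging 100 to 250 FPKM it ran from -0.27 to 0.67, and of 18 members Ndufa4 lay below it. Ndufs5 averaged under 20 FPKM and fell outside both ranges of level. This spread is across genes and is no replicate error.

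Promoters were read for the 70 members found in the RefSeq table (GRCm38.p6), each from 250 bases before to 50 bases after the start, on both strands. The NRF1 palindrome spelled out above, of nuclear respiratory factor 1, occurred in 17 of them (24.3%), against 7.17% of 17492 protein-coding genes. The ETS core CCGGAAG, bound by GABP among others, occurred in 16 (22.9%), against 12.9%, and the YY1 core AAGATGG in 12 (17.1%), against 7.18%. The SP1 core GGGCGG was found in 29 (41.4%), against 49.2%, and is a common string in CpG-rich starts.

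The E-box CACGTG, the element through which the clock factors CLOCK and BMAL1 act and on which PER2 represses them, occurred in 7 of the 70 promoters (10%), against 8.91% of protein-coding genes. These were Atp5f1, Atp5g1, Atp5g3, Atp5l, Atp5sl, Ndufa7 and Ndufv1. The promoter of Ndufv1 is printed because, of these 7, it had the highest difference, and capitals mark the E-box, 163 bases before the start (RefSeq, GRCm38.p6, chr19:4012756-4013005, minus strand).
Ndufv1: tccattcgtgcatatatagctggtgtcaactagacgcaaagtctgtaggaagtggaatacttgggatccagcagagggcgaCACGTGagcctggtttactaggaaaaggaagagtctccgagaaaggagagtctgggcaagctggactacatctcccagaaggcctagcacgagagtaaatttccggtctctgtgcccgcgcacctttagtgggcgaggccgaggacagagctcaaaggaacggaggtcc
Of the 7 genes with the E-box 2 were higher in Per2def, with a median difference of -0.09, and of 62 measured genes with a promoter and no E-box 21 were higher, with a median of -0.05. For the NRF1 motif, 7 of 17 with it were higher (median -0.01) and 16 of 52 without it (median -0.06). The motifs were chosen after the values had been seen, and no match in this window says only that these letters are not there.

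Genes listed as assembly factors of complexes I and IV were higher in Per2def more often than lower. Of 16 measured complex I assembly factors 11 were higher in Per2def, with a median difference of 0.02. These 16 include Atp5sl, which is also a member. Tmem126b, of the membrane arm assembly machinery, stood at 3.94 FPKM in Per2def and 2.78 FPKM in Per2wt (difference 0.39). Acad9, of the same machinery, differed by 0.27 and Foxred1 by 0.24. Of 26 genes listed for complex IV 17 were higher, with a median of 0.07. That list is broad and includes factors that act on mitochondrial messages rather than on the complex itself. Slirp, which protects mitochondrial messages, stood at 48.9 FPKM in Per2def and 37.5 FPKM in Per2wt (difference 0.38), while Fastkd3 and the copper chaperone Sco2 both differed by -0.28. These shares, 68.8% and 65.4%, lie near the 62% of all measured genes.

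The smaller assembly lists were mixed. For complex II, Sdhaf2 differed by 0.16 and Sdhaf1 by -0.01. For complex III 2 of 4 measured factors were higher, and Uqcc2 had the widest difference (0.14), beside Ttc19 (0.04) and Uqcc1 (-0.04). For complex V, Atpaf2 differed by 0.17, Tmem70 by 0.09 and Atpaf1 by -0.04. Parts of the ATP synthase under other symbols were Atpif1, its inhibitor, at 249.6 FPKM in Per2def and 241 FPKM in Per2wt, with Usmg5 (difference -0.13) and 2010107E04Rik (difference -0.24).

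Of the mobile carriers, cytochrome c had RNA levels that were close in both libraries. Cycs, cytochrome c itself, stood at 16.9 FPKM in Per2def and 16.7 FPKM in Per2wt, Hccs, which attaches its haem, differed by -0.06, and the testis form Cyct was listed at 0 in both. Of 13 genes of coenzyme Q synthesis 5 (38.5%) were higher in Per2def, against 62% of all measured genes (median -0.02). Pdss2, which makes the tail of coenzyme Q, differed by -0.39, Adck4 by 0.24 and Coq6 by -0.20. The level of coenzyme Q itself is not measured by RNA. Of 15 measured regulators of mitochondrial genes 10 (66.7%) were higher, near the 62% of all measured genes (median 0.08). Gabpa, the DNA-binding part of GABP, stood at 6.87 FPKM in Per2def and 5.58 FPKM in Per2wt (difference 0.26), the coactivator Ppargc1b differed by 0.23 and the nuclear receptor Esrra by 0.22. Nrf1 stood at 8.02 FPKM in Per2def and 7.53 FPKM in Per2wt, and the coactivator Ppargc1a was under 1 FPKM in both libraries, at 0.139 FPKM in Per2def and 0.0921 FPKM in Per2wt.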

How the data were processed

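RNA of 2 libraries was compared, 1 per genotype, grouped by the genotype label. Per the file headers, the deposited values are FPKM per gene, and the submitters' processing notes name Cufflinks, CASAVA 1.8, TopHat, Bowtie2 and the builds GRCm38 and mm10. The kit marks strand, per the labels' protocols. The strand setting, gene annotation, other versions and read totals are not stated, so absolute depth is unknown, reads of overlapping genes cannot be told apart and no interval can be set. A total of 9 rows flagged for too much data and 27 rows whose symbols had become dates were left out, and rows sharing a symbol were summed.

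Differences are log2(FPKM + 1), Per2def minus Per2wt, over genes that reached 1 FPKM in either library, with a 1.5-fold threshold. No test was run, because there is 1 library per genotype. Gene coordinates, coding lengths and copies come from GENCODE M21 (GRCm38), copies by BLAST+ 2.17.0, and promoters from RefSeq (GRCm38.p6). Python 3.11.15 with pandas 2.3.3, numpy 2.4.6 and matplotlib 3.10.9 was used, and the procedure was tested on simulated data.

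The members, lists and alternatives were chosen with earlier results of these data known. In each complex the text names the 3 most abundant genes, the 3 highest and the 3 lowest differences, all of complex II, every isoform family and every gene under 1 FPKM in both libraries, and from each other list the 3 widest differences. Other genes, such as the core subunits, Ndufa9, Ndufa10, Ndufs4, Nrf1 and Ppargc1a, were named after their values were seen. Alternatives were other scalings, pseudocounts of 0.1 and 0.5 FPKM, other floors and fold thresholds, the highest row per symbol, the mean, and subunits alone. Added after seeing the data were Ndufa4 in complex I and members without a near copy. One member counted in the totals is not reported here by name.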

Additional observations from a re-analysis of the deposited data

How the results depend on the processing

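The median difference of the subunit genes, -0.036 as reported, was negative under all 12 alternatives: -0.093 with median of ratios scaling, -0.071 with upper quartile scaling, -0.035 with no filter, -0.049 over the subunits of complexes I to V alone and -0.020 as a mean. Counts of genes higher in Per2def ran from 21 to 31 over 9 alternatives and counts of lower genes from 36 to 61. These alternatives cover unlike numbers of genes. The count of 36 came from the 58 measured members without a near copy, of which 22 were higher. With the threshold at 25% above the other library, 4 genes were higher and 5 lower in Per2def. At 2-fold, 1 was higher. With a pseudocount of 0.1 or 0.5 FPKM, 1 gene was lower by 1.5-fold, where 0 were with 1 FPKM. Complex II turned under some settings. Its mean difference was -0.0095 where its median was 0.07, and its summed ratio was 0.960 with median of ratios scaling and 0.995 with a fixed total without small and predicted RNAs, against 1.00 as deposited. The causes of these changes were not tested. No paired analysis was possible because each genotype has 1 library and the labels give no replicate number, and for the same reason no library could be left out. Low values, such as those of Cox7a1 and Cox8b, rest on few reads and carry the most counting error, and values of genes with near copies depend on how shared reads were assigned.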

Other observations

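Mir677, a microRNA row that lies within Atp5b on the same strand, stood at 65.9 FPKM in Per2def and 245 FPKM in Per2wt, a difference of -1.88, while Atp5b stood at 220.1 FPKM in Per2def and 201.6 FPKM in Per2wt. A total of 23 members overlap another listed gene, and 20 of them overlap a protein-coding gene, each on the opposite strand. Of the overlapped protein-coding neighbours 3 reached 20 FPKM, namely Eef1b2 beside Ndufs1, Mrpl36 beside Ndufs6 and Shmt2 beside Ndufa4l2. Gabpa, the regulator named above, overlaps Atp5j, whose level was 79.8 FPKM in Per2def and 86.3 FPKM in Per2wt. Ndufa1, Ndufb11 and Cox7b are the 3 members on the X chromosome, with differences of -0.10, 0.10 and -0.10.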
